A study of Mus musculus with 12 samples.

Results

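The change of the lung transcriptome between 1 week and 4 weeks in mice that received saline and no paraquat was measured by comparing 3 saline libraries at 4 weeks with 3 saline libraries at 1 week. These 6 libraries of the 12 in the series were chosen by their treatment labels, control 4w and control 1w, and every gene of the tables was considered. All mice were wild-type C57BL/6J with an age label of 8 weeks in each of the 4 groups, so the age of the 4-week animals at collection cannot be read from it. The control groups received saline, and the other 6 libraries, PQ 1w and PQ 4w, came from mice dosed once into the trachea with paraquat, a herbicide that injures the lung, in saline. In the labels, w was taken to mean weeks. The labels number the replicates without saying whether each is its own mouse, and the p-values therefore reflect only how much these samples vary. RNA came from homogenized whole lung, in which fewer cells of a type and less RNA per cell cannot be told apart.

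Saline is the vehicle, so this pair of groups shows how much a lung transcriptome can differ between collection times without the toxicant. Background on some normal programmes and tissues follows, and none of them was tested as a cause of the differences. The circadian clock is a feedback loop in which BMAL1 (encoded by Arntl) with CLOCK or NPAS2 activates Per, Cry, Dbp and Nr1d1 genes, and the products of these genes in turn repress the loop, so that levels follow the hour of the day. Lung growth slows as a young mouse matures, with less cell division and less deposition of collagen. In mice, heart-type muscle also extends along the pulmonary veins into the lung, and the conducting airways carry club, ciliated and mucous cells.

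Library totals of the 6 saline samples lay between 17523549 and 18249165 expected counts, and the test covered 15921 of the 20774 genes. Lung marker genes were present in all 6 libraries. Sftpc, the surfactant protein C gene of alveolar type 2 cells, was at 14260 to 20810 CPM (counts scaled to a common library size), and Ager, a marker of alveolar type 1 cells, was at 2050 to 2984 CPM. The Y-linked Ddx3y was at 71.8 to 91.7 CPM in all 6. In a principal component analysis of the 6 libraries the first component held 56.1% of the variance and placed the control 1w libraries at -14.4, -33.6 and -38.1 and the control 4w libraries at 17.4, 36.1 and 32.5. Replicate 1 of each group lay nearest to the other group.

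Of the tested genes, 1609 (10.1%) passed an adjusted p of 0.05 by edgeR's quasi-likelihood test with Benjamini-Hochberg adjustment, fitted on all 12 libraries. Of these, 940 (5.90%) rose and 669 (4.20%) fell between 1 and 4 weeks, and the median log2 difference of all tested genes was 0.01. Every count of called list members below is to be read beside these shares of all tested genes. Changes of at least 2-fold were found for 433 genes (2.72%), 356 (2.24%) up and 77 (0.484%) down, while 784 of the called changes were below 1.5-fold. The smallest adjusted p was 0.00407. DESeq2 split its 2371 calls the other way, with 1132 higher and 1239 lower, and another scaling of the counts (RLE) gave 826 higher and 830 lower, so the balance of rising and falling genes depended on the method. The number called also rested on single libraries: it was 337 without control 1w replicate 1, 139 without control 1w replicate 3, 678 without control 4w replicate 1, 123 without control 4w replicate 2 and 159 without control 4w replicate 3. Without control 1w replicate 2 it stayed nearer to the main count, at 1420, but the split turned, with 614 higher and 806 lower. Leaving out a paraquat library also changed the count, since the genes kept, the scaling and the spread are set over all libraries: without PQ 1w replicate 3 it was 931 of 16080 tested genes, and without PQ 4w replicate 3 it was 2570. Only 79 genes, 25 higher and 54 lower, passed in each of the 6 fits that left out 1 saline library.

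**Figure D1:**
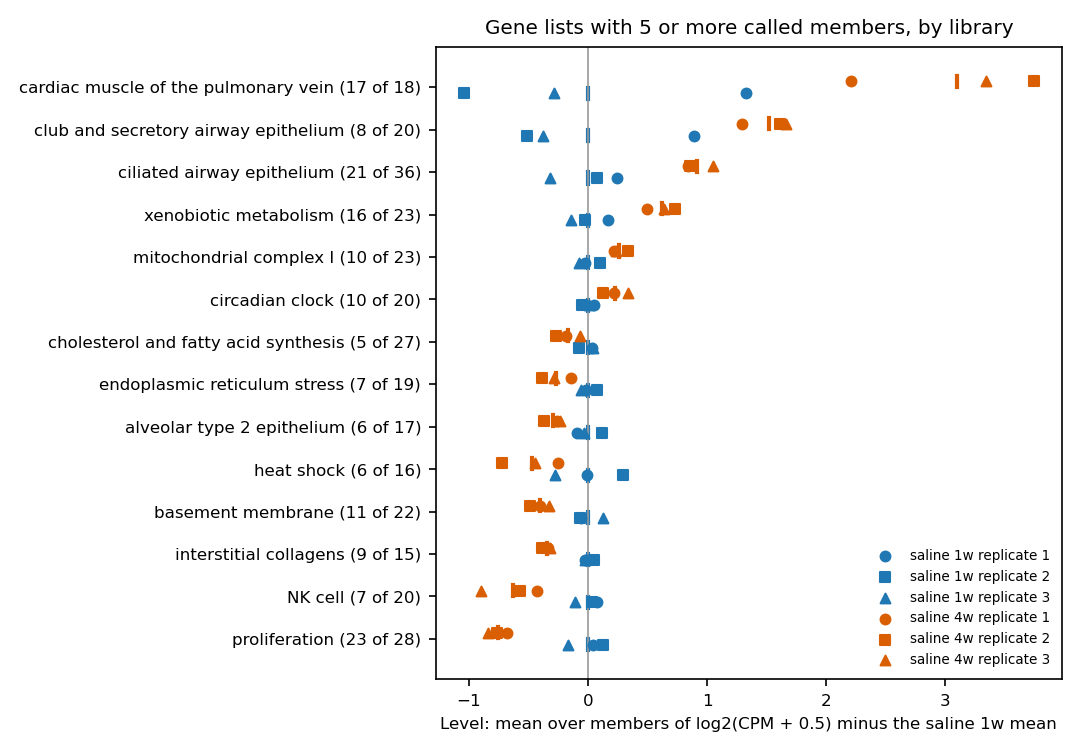
Level of each gene list with 5 or more called members in the 6 saline libraries, as the mean over members of log2(CPM + 0.5) minus the control 1w mean. Points are libraries, bars are group means, and the numbers beside each name are members called and members tested. Cardiac muscle genes stood highest at 4 weeks and cell cycle genes lowest, and control 1w replicate 1 lay above the other control 1w libraries for cardiac and secretory airway genes.

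Clock genes changed in both directions. Of 20 tested clock genes, 7 rose and 3 fell, 13 had values that did not overlap between the groups (34.4% of all tested genes did not overlap), and the list median was 0.14. The 3 that fell were Arntl, Npas2 and Nfil3, and those that rose were Dbp, Per3, Tef, Nr1d1, Nr1d2, Bhlhe41 and Usp2. The proximal promoters of members that moved in each direction are shown because the known wiring of the clock runs through 3 short elements. The E-box CACGTG is bound by BMAL1 with CLOCK or NPAS2 and by BHLHE41. The D-box TTATGTAA is bound by DBP, TEF and HLF as activators and by NFIL3 as repressor. The ROR element is bound by ROR activators and by the repressors NR1D1 and NR1D2. It was searched as the loose pattern TNGGTCA (shown with the 3 bases before it), in which N is any base. A match to this pattern need not be a ROR element. Each sequence is the 250 bases upstream of a RefSeq transcription start, on GRCm38.p6, written 5′ to 3′ on the strand of the gene. Capitals mark matches to these patterns. The 10-letter matches in Per3, Tef and Nfil3 are matches to the loose ROR pattern read on the other strand. The lines are Per3 (chr4:151044666-151044915, minus strand), Tef at its second listed start (chr15:81811164-81811413, plus strand), Bhlhe41 (chr6:145865421-145865670, minus strand), Arntl at its first listed start (chr7:113207215-113207464, plus strand) and Nfil3 (chr13:52981040-52981289, minus strand).
Per3: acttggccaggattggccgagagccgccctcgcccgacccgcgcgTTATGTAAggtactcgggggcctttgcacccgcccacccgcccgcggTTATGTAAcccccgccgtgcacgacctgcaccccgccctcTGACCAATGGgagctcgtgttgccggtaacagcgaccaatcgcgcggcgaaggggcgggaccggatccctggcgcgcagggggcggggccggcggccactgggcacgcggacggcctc
Tef: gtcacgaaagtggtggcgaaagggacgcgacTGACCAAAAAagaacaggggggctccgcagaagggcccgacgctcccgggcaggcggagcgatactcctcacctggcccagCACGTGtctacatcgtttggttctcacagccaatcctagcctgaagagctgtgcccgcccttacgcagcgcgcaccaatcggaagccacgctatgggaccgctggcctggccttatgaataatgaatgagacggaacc
Bhlhe41: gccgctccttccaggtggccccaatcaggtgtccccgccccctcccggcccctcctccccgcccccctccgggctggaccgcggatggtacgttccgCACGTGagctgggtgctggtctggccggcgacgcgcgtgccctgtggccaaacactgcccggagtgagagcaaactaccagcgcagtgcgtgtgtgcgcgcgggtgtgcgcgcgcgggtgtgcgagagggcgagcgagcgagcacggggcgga
Arntl: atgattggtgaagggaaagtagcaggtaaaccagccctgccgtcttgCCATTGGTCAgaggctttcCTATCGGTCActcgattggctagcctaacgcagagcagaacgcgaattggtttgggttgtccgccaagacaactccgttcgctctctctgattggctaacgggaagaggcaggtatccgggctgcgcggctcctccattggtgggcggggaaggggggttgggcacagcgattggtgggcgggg
Nfil3: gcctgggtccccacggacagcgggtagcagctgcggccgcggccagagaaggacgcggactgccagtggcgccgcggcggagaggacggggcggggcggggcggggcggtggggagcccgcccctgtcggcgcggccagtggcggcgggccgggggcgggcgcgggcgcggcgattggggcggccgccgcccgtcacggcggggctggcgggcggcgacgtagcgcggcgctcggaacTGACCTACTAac

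Promoters of 17 of the 20 clock genes were in the RefSeq table, with 22 start sites in all, and each element was searched on both strands. The E-box stood in the upstream window of 5 of the 17 genes, Per1, Cry1, Tef, Bhlhe41 and Ciart. Counted by start site it stood in 6 of the 22 windows, beside 6.02% of all 32851 promoters of this length. A D-box was found in 1 of the 17 genes, Per3, at 205 and 158 bases upstream of the start. By start site this was 1 of the 22 windows, beside 0.819% of all promoters. The loose ROR pattern stood in 5 of the 17 genes, Arntl with 2 copies, Per3, Cry2, Tef and Nfil3. By start site it stood in 6 of the 22 windows, with the overlapping Arntl windows counted separately, beside 9.08% of all promoters. Its free base N was A in the Nfil3 match and T or C in the others. No match of one pattern overlapped a match of another. The first Arntl match and the ROR pattern matches in Per3 and Cry2 also hold a CCAAT box. The windows of Dbp, Nr1d1, Nr1d2, Npas2 and Usp2 held none of these letters, and a match is a description of the sequence and not a measured binding site.

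Dbp, the D-box binding activator whose own level swings widely over the day, changed most. Its level was 12.4, 7.62 and 12 CPM in control 1w replicates 1 to 3 and 43.0, 54.5 and 85.3 CPM in control 4w replicates 1 to 3. All 4-week libraries lay above all 1-week libraries, with replicate 3 highest, and the log2 difference was 2.51 ± 0.25 (standard error, n = 3 per group, edgeR adjusted p = 0.00407), a 5.70-fold higher level. Dbp lies at chr7:45705100-45710203 (GRCm38) and passed in all 6 fits without a saline library. Per3, a period gene that carries the pair of D-boxes shown above, was at 29.0, 25.8 and 27.9 CPM at 1 week and 52.6, 46.0 and 75.6 CPM at 4 weeks. The groups were apart, with a log2 difference of 1.07 ± 0.16 (edgeR adjusted p = 0.00946), and the call held in all 6 fits.

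Tef, a relative of Dbp, was at 182, 179 and 202 CPM at 1 week and at 290, 239 and 335 CPM at 4 weeks, a log2 difference of 0.62 ± 0.11 (edgeR adjusted p = 0.0182). Bhlhe41, an E-box binding repressor also known as DEC2, was at 10.9, 11.6 and 11.2 CPM and then at 16.8, 23.5 and 26.0 CPM, a log2 difference of 0.97 ± 0.16 (edgeR adjusted p = 0.011). In both genes every 4-week value exceeded every 1-week value. Nr1d2, encoding REV-ERB beta, rose by a log2 of 0.63 ± 0.15 and Usp2, a deubiquitinase under clock control, by 0.95 ± 0.24, and each passed in 1 of the 6 fits without a saline library. Nr1d1, encoding REV-ERB alpha, was at 173, 146 and 209 CPM at 1 week and 256, 207 and 335 CPM at 4 weeks. Its groups overlapped, since replicate 3 at 1 week lay above replicate 2 at 4 weeks, and its call (log2 0.60 ± 0.17, edgeR adjusted p = 0.0459) was lost whichever saline library was left out.

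The 3 falling members belong to the other arm of the loop. Arntl, which encodes BMAL1, was at 31.5, 36.6 and 35.0 CPM at 1 week and 20.9, 21.0 and 15.6 CPM at 4 weeks, a log2 difference of -0.84 ± 0.17 (edgeR adjusted p = 0.0224). Npas2, which can stand in for CLOCK, was at 14.2, 15.9 and 12.6 CPM and then at 6.83, 9.50 and 6.11 CPM (log2 -0.93 ± 0.23, edgeR adjusted p = 0.0331), a call lost whichever saline library was left out. Nfil3, the repressor at D-boxes, was at 24.9, 24.9 and 22.7 CPM and then at 14.9, 15.5 and 7.19 CPM (log2 -0.95 ± 0.21, edgeR adjusted p = 0.026). In all 3 genes the groups were apart, and replicate 3 at 4 weeks was the lowest library, as it was the highest for Dbp, Per3, Tef, Nr1d1, Nr1d2, Bhlhe41 and Usp2.

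Other core genes did not pass. Clock itself had a log2 difference of -0.27 ± 0.08 (edgeR adjusted p = 0.0521), Cry1 of -0.25 ± 0.12, Rora of -0.18 ± 0.07 and Hlf of 0.48 ± 0.20. Per1 (-0.05 ± 0.15), Per2 (0.22 ± 0.16), Cry2 (0.09 ± 0.10), Bhlhe40 (-0.03 ± 0.12) and Ciart (0.00 ± 0.16) had values that overlapped between the groups. Leaving out 1 saline library left 4 to 6 clock members called, with the fewest, 4, without control 1w replicate 3 or control 4w replicate 3. The other counts were 5 without control 4w replicate 2 and 6 without each of the remaining 3 saline libraries. The hour of the day at which lungs were collected is not given in the sources used here.

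**Figure D2:**
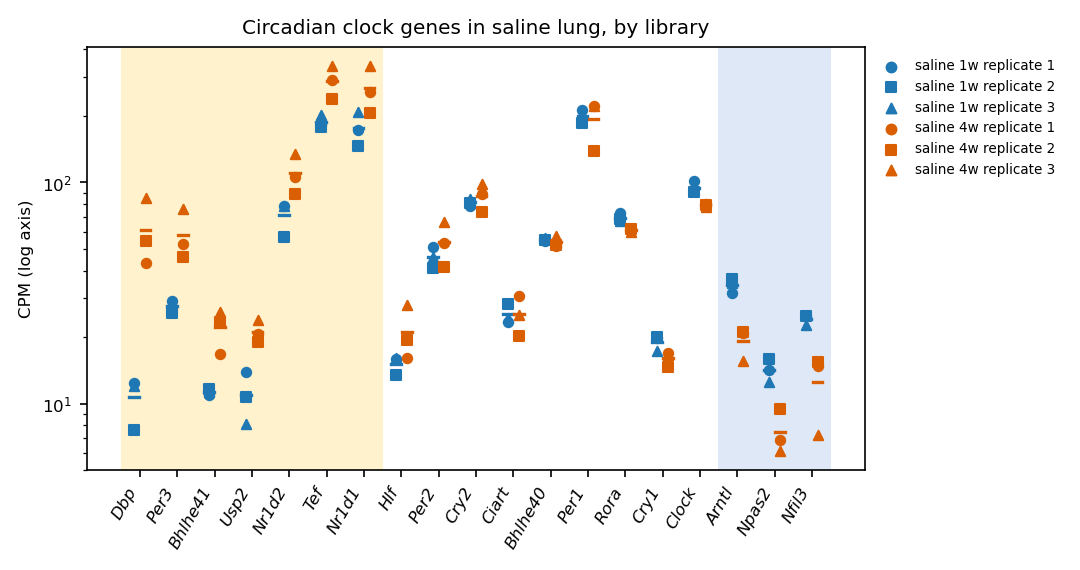
CPM of 19 clock genes in the 6 saline libraries on a log axis, with bars at the group means, ordered from the highest to the lowest log2 difference. Yellow shading marks the 7 genes that rose and blue shading the 3 that fell. Dbp showed the widest gap, from 7.62 to 12.4 CPM at 1 week to 43.0 to 85.3 CPM at 4 weeks.

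Genes of heart-type muscle rose. Of 18 tested cardiac muscle genes 17 rose and none fell, with a list median of 3.22 against 0.01 for all genes, and all 15 genes with the highest log2 differences under the naming rule (called, at least 1 CPM over the saline libraries and no overlap) rose by at least 3.43. These 15 were Nppa, Ckm, Mb, Hfe2, Eef1a2, Mhrt, Xirp2, Tcap, Hamp, Ckmt2, Csrp3, Myl1, Smpx, Art1 and Sln. The cardiac list held Nppa, Mb, Ckmt2, Csrp3 and Sln, the skeletal list held Ckm, and the others were in neither, among them Hamp, which encodes the iron hormone hepcidin. Csrp3 and Sln passed in 0 of the 6 fits without a saline library, and none of the 15 in more than 3. The strandedness of the counting is not given in the sources used here. Reads of genes that overlap on opposite strands may therefore be mixed, and whether this affected Mhrt was not tested.

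Nppa, which encodes the atrial natriuretic peptide secreted by atrial-type muscle (chr4:148000722-148002074), was at 5.38, 0.398 and 0.390 CPM at 1 week and 7.70, 90.2 and 58.7 CPM at 4 weeks. Replicate 1 was the highest library at 1 week and the lowest at 4 weeks, and the groups were apart by a small margin only. The log2 difference was 4.67 ± 1.24 (edgeR adjusted p = 0.0386). Myl7, the atrial regulatory light chain, was at 23.0, 1.88 and 5.74 CPM and then at 50.3, 118 and 115 CPM, a log2 difference of 3.21 ± 0.82 (edgeR adjusted p = 0.0348). Mb, encoding the oxygen store myoglobin, was at 13.5, 0.228 and 2.62 CPM and then at 37.8, 127 and 89.7 CPM, a log2 difference of 3.96 ± 1.00 (edgeR adjusted p = 0.0343).

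Contractile genes rose as well. Tnnt2 and Tnni3, encoding cardiac troponins T and I, rose by log2 differences of 3.18 ± 0.74 and 3.01 ± 0.69, and Actc1, encoding cardiac actin, rose by 2.03 ± 0.51. The calcium handling genes Ryr2 (2.37 ± 0.56), Pln (3.25 ± 0.80) and Sln (3.43 ± 0.98) rose, as did the atrial potassium channel gene Kcna5 (1.18 ± 0.32). Myh6, the alpha heavy chain, was at 128, 2.16 and 28.5 CPM and then at 245, 715 and 570 CPM. It had a log2 difference of 3.27 ± 1.08 but did not pass (edgeR adjusted p = 0.0729). Of 8 tested skeletal muscle genes, Ckm (3.99 ± 0.77) and Atp2a1 (2.64 ± 0.36) rose, while Actn3 (-0.70 ± 0.41), Tnni2 (-0.31 ± 0.31) and Mylpf (0.41 ± 0.24) did not pass. Atp2a1, a sarcoplasmic calcium pump, passed in all 6 fits without a saline library, and Ckm in 3, so that 1 skeletal gene passed without control 1w replicate 3, control 4w replicate 2 or control 4w replicate 3.

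The summed level of the 18 cardiac genes was 401, 85.4 and 129 CPM at 1 week and 769, 2177 and 1684 CPM at 4 weeks. It therefore varied 4.7-fold among the control 1w libraries and 2.83-fold among the control 4w libraries. No cardiac gene passed without control 1w replicate 2, without control 1w replicate 3, without control 4w replicate 2 or without control 4w replicate 3 by edgeR, whereas 11 passed without control 1w replicate 1 and 14 without control 4w replicate 1. Leaving out PQ 1w replicate 3 left 10. The list median stayed between 2.73 and 4.49 across all alternatives that left out a library. In the paraquat libraries the same sum was 168, 372 and 339 CPM at 1 week and 774, 1348 and 201 CPM at 4 weeks. How much muscle of the veins or of the heart each sample held was not tested.

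**Figure D3:**
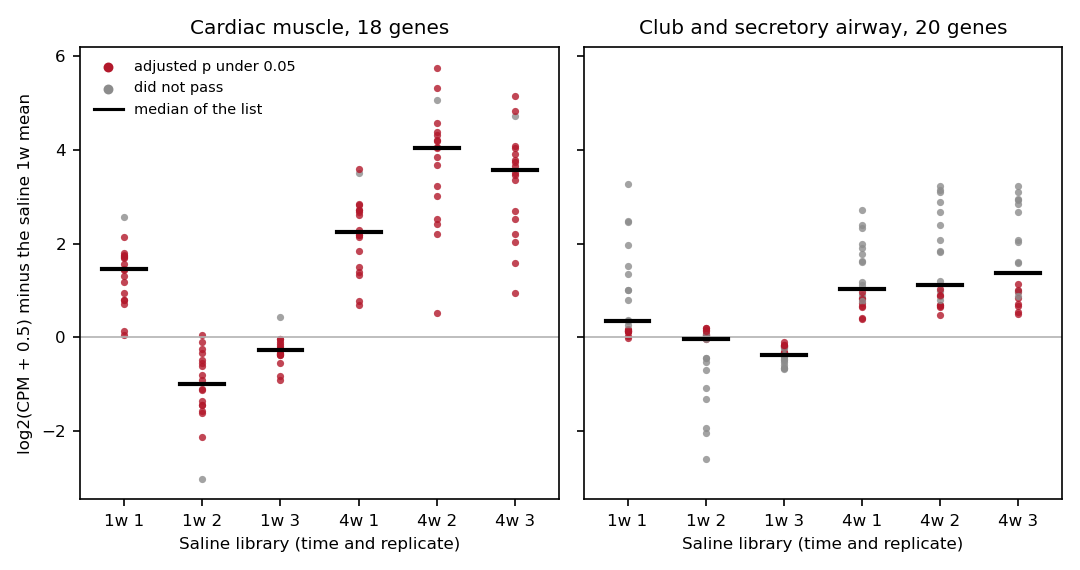
Members of the cardiac muscle list (18 genes) and of the club and secretory airway list (20 genes) in the 6 saline libraries, as log2(CPM + 0.5) minus the control 1w mean of the gene. Points are genes, red where the adjusted p was under 0.05, and black bars are list medians. By the mean over members, control 1w replicate 1 was the highest 1-week library in both lists. The secretory genes that did not pass spread most at 1 week. Scgb1a1 and the summed secretory CPM were highest at 1 week in control 1w replicate 2.

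Genes of the conducting airways were higher at 4 weeks. Of 36 tested genes of ciliated cells 21 rose and none fell (median log2 1.03), and of 20 tested genes of club and other secretory cells 8 rose and none fell (median 1.08). Scgb1a1, the main secretory product of club cells, made up 2.63, 2.75 and 1.94% of all counts at 1 week and 4.27, 4.00 and 4.73% at 4 weeks. The groups were apart, with a log2 difference of 0.82 ± 0.23 (edgeR adjusted p = 0.0446), a call that no fit without a saline library kept. Cyp2f2, the club cell cytochrome P450 (chr7:27119955-27133660), was at 2779, 2562 and 2161 CPM at 1 week and 4839, 5091 and 5482 CPM at 4 weeks. Every 4-week library was above every 1-week library (log2 1.04 ± 0.17, edgeR adjusted p = 0.0126), and the call held in all 6 fits.

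Other club cell genes that rose were Cbr2 (0.82 ± 0.17), Cckar (0.81 ± 0.20), Pon1 (0.67 ± 0.16), Hp (0.61 ± 0.16), Cldn10 (0.61 ± 0.17) and Aldh1a1 (0.54 ± 0.13), given as log2 differences. The genes of mucous and proximal secretory cells varied far more between the 1-week libraries. Muc5b, the airway mucin, was at 115, 18.5 and 28.6 CPM at 1 week and 263, 254 and 310 CPM at 4 weeks, a log2 difference of 2.35 ± 0.93 that did not pass (edgeR adjusted p = 0.123). Bpifa1, a secreted antimicrobial protein gene of the upper airway, was at 242, 3.64 and 15.2 CPM and then at 99.7, 234 and 235 CPM, so that its highest value was a 1-week library. Scgb3a1 (99.8, 9.78 and 15.7 CPM at 1 week) and Bpifb1 (108, 4.61 and 13 CPM) showed the same order at 1 week, with replicate 1 highest and replicate 2 lowest. This was also the order of the cardiac sum at 1 week.

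The remaining secretory members did not pass by edgeR: Gabrp (0.81 ± 0.24), Scgb3a2 (0.94 ± 0.32), Lypd2 (1.31 ± 0.45), Reg3g (1.54 ± 1.28), Sult1d1 (1.82 ± 0.57), Muc5ac (2.10 ± 1.00), Gp2 (2.25 ± 1.82) and Tff2 (2.36 ± 0.99), as log2 differences. All 20 tested members were higher at 4 weeks as point estimates. With a saline library left out, 1 to 4 secretory genes passed, with 4 of them without control 1w replicate 2 or control 4w replicate 1 and 1 without any of the other 4. Without PQ 1w replicate 3 the count was 5, without PQ 4w replicate 3 it was 14, and in the fit of the 6 saline libraries alone it was 15.

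Ciliated cells move mucus with motile cilia driven by dynein arms. Foxj1, the transcription factor that switches on the motile cilium programme, was at 102, 102 and 66.8 CPM at 1 week and 164, 180 and 187 CPM at 4 weeks, with a log2 difference of 0.97 ± 0.27 (edgeR adjusted p = 0.0418). The dynein arm genes Dnah9 (1.02 ± 0.29), Dnaic1 (1.04 ± 0.25) and Dnaic2 (1.05 ± 0.30) rose by similar amounts. Radial spoke and central pair genes rose too, with Rsph1 at 1.06 ± 0.27, Rsph4a at 1.10 ± 0.32, Hydin at 1.07 ± 0.29 and Spag17 at 0.89 ± 0.26. Assembly genes Ccdc40 (1.03 ± 0.26) and Ccdc113 (1.06 ± 0.26), the adenylate kinase gene Ak7 (1.03 ± 0.27) and the light chain gene Dynlrb2 (1.14 ± 0.26) were also called. Cfap43 (1.14 ± 0.28), Cfap44 (1.16 ± 0.28), Cfap126 (0.99 ± 0.26), Ccdc153 (1.16 ± 0.27), Tmem212 (1.11 ± 0.24) and Cdhr3 (1.21 ± 0.27) rose. So did the ciliary tip gene Sntn (1.22 ± 0.30), the tektin gene Tekt4 (1.30 ± 0.30) and Fam183b (1.32 ± 0.26), which had the highest difference of the list.

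The ciliated members that did not pass fell into 2 kinds. Dnah5 (1.23 ± 0.37), Dnah11 (0.78 ± 0.25), Drc1 (0.83 ± 0.30), Lrrc23 (0.87 ± 0.30), Ccdc39 (0.88 ± 0.30), Pifo (0.97 ± 0.31), Tekt1 (1.02 ± 0.32) and Mlf1 (1.05 ± 0.33) had log2 differences near those of the called genes, without overlap between the groups. The regulators of ciliogenesis Mcidas (0.15 ± 0.41), Rfx3 (0.18 ± 0.19), Rfx2 (0.38 ± 0.18) and Ccno (0.66 ± 0.26), with Tppp3 (0.09 ± 0.16), Cfap53 (0.38 ± 0.24) and Ccdc67 (0.61 ± 0.37), had smaller ones. With a saline library left out, 9 ciliated genes passed without control 1w replicate 2, 3 without control 1w replicate 1 or control 4w replicate 1, and none by edgeR without any of the other 3. Leaving out PQ 1w replicate 3 left 11 called.

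Enzymes that process foreign compounds also rose, 16 of 23 tested with none falling (median log2 0.56). Besides Cyp2f2 and Cbr2, which the list shares with the club cell genes, the cytochrome P450 genes Cyp2a5 (2.55 ± 0.69), Cyp1b1 (0.86 ± 0.25) and Cyp2s1 (0.77 ± 0.17) rose, and Por, encoding the reductase that supplies electrons to them, rose by 0.64 ± 0.14. Ephx1, encoding microsomal epoxide hydrolase, was at 195, 210 and 201 CPM at 1 week and 270, 285 and 317 CPM at 4 weeks. Its groups were apart with little spread (log2 0.52 ± 0.09, edgeR adjusted p = 0.0127), and it passed in 5 of the 6 fits without a saline library. The glutathione transferase genes Gsta3 (0.61 ± 0.16), Gsta4 (0.77 ± 0.18), Gstm1 (0.44 ± 0.11) and Gstp1 (0.37 ± 0.10) rose, as did Aldh3a1 (1.22 ± 0.33), Aox3 (0.56 ± 0.11), Aox1 (0.48 ± 0.13) and Ces1d (0.32 ± 0.07). Cyp1a1, the classic target of the dioxin receptor, was at 92.0, 84.4 and 87.0 CPM and then at 66.2, 150 and 59.5 CPM, and its groups overlapped. The count of called members was 6, 10 and 2 without control 1w replicates 1, 2 and 3, and 7, 2 and 1 without control 4w replicates 1, 2 and 3.

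Cell cycle genes fell. Of 28 tested, 23 fell and none rose, with a list median of -0.87. In 26 the groups did not overlap, beside 34.4% of all tested genes. Mki67, the gene of the Ki-67 antigen present in dividing cells (chr7:135689784-135716450), was at 38.3, 38.9 and 31.9 CPM at 1 week and 14.9, 14.5 and 11 CPM at 4 weeks. The 1-week values were all above the 4-week values, with a log2 difference of -1.43 ± 0.21 (edgeR adjusted p = 0.00946), a 2.70-fold lower level. Top2a, encoding the topoisomerase that untangles replicated DNA, was at 32.6, 31.3 and 22.6 CPM and then at 12.2, 10.6 and 10.2 CPM (log2 -1.39 ± 0.18, edgeR adjusted p = 0.00605). Both genes passed in all 6 fits without a saline library, as did 8 members of the list in all.

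Among mitotic genes, log2 differences were -1.26 ± 0.21 for cyclin B1 (Ccnb1), -1.23 ± 0.21 for the kinetochore gene Cenpf, -1.15 ± 0.17 for the spindle motor Kif11 and -1.09 ± 0.16 for the mitotic kinase Aurkb. Cyclin A2 (Ccna2, -1.08 ± 0.20), the spindle assembly factor Tpx2 (-1.02 ± 0.13), the cyclin-dependent kinase Cdk1 (-0.98 ± 0.20) and Aurka (-0.93 ± 0.17) followed. Foxm1, the transcription factor of the late cell cycle, was at 11.6, 9.90 and 9.86 CPM at 1 week and 6.13, 5.71 and 6.16 CPM at 4 weeks, a log2 difference of -0.80 ± 0.11 (edgeR adjusted p = 0.00719). Its values lay close together within each group. Genes of DNA replication were mixed. Rrm2, a subunit of ribonucleotide reductase, fell by 1.17 ± 0.23 on the log2 scale and the replicative helicase genes Mcm5 and Mcm2 fell by 0.56 ± 0.12 and 0.43 ± 0.10. Mcm6 (-0.21 ± 0.09), Mcm3 (-0.17 ± 0.11), Pcna (-0.24 ± 0.09) and Tyms (0.06 ± 0.14) did not pass.

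Among the 15 lowest log2 differences under the naming rule, 7 were further genes of dividing cells: Depdc1a (-1.98 ± 0.36), Shcbp1 (-1.88 ± 0.29), Pbk (-1.69 ± 0.25), the centromere guardian Sgol1 (-1.66 ± 0.31), Fam64a (-1.60 ± 0.31), the cytokinesis scaffold Iqgap3 (-1.45 ± 0.17) and the condensin subunit Ncapg (-1.45 ± 0.22). With a saline library left out, the count of called cell cycle members was 15, 21 and 15 without control 1w replicates 1, 2 and 3 and 20, 10 and 10 without control 4w replicates 1, 2 and 3.

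Collagen genes fell with them by smaller amounts. Of 15 tested genes of interstitial collagens 8 fell and 1 rose (median log2 -0.51). In 14 the groups did not overlap, beside 34.4% of all tested genes. Col3a1, the fibrillar collagen III gene (chr1:45311538-45349706), was at 896, 1055 and 924 CPM at 1 week and 527, 604 and 528 CPM at 4 weeks. Every 1-week library was above every 4-week library, with a log2 difference of -0.79 ± 0.10 (edgeR adjusted p = 0.00605). Col5a2, a collagen V chain that seeds fibrils, was at 141, 156 and 146 CPM and then at 91.2, 90.6 and 86.0 CPM (log2 -0.73 ± 0.09, edgeR adjusted p = 0.00605). The 3 chains of collagen VI, which forms beaded filaments around cells, fell by similar amounts, Col6a1 by 0.61 ± 0.08, Col6a2 by 0.65 ± 0.08 and Col6a3 by 0.70 ± 0.09 on the log2 scale. Col14a1 (-0.51 ± 0.11), Col5a1 (-0.37 ± 0.09) and Col1a2 (-0.35 ± 0.07) fell less.

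Col1a1, the major chain of collagen I, was at 614, 663 and 630 CPM at 1 week and 543, 560 and 548 CPM at 4 weeks. Its groups did not overlap, but the log2 difference of -0.21 ± 0.09 did not pass (edgeR adjusted p = 0.14). Col8a2, a short-chain collagen gene, was the 1 that rose, from 17.8, 18.0 and 15.3 CPM to 26.0, 26.0 and 31.1 CPM (log2 0.70 ± 0.18, edgeR adjusted p = 0.0375). Col12a1 (-0.74 ± 0.29), Col5a3 (-0.72 ± 0.26), Col16a1 (-0.31 ± 0.09) and Col8a1 (0.57 ± 0.17) did not pass, and Col11a1 was at most 0.285 CPM. The count of called members was 5 to 8 when a saline library was left out, lowest without control 4w replicate 2, and 5 of the members passed in all 6 fits.

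**Figure D4:**
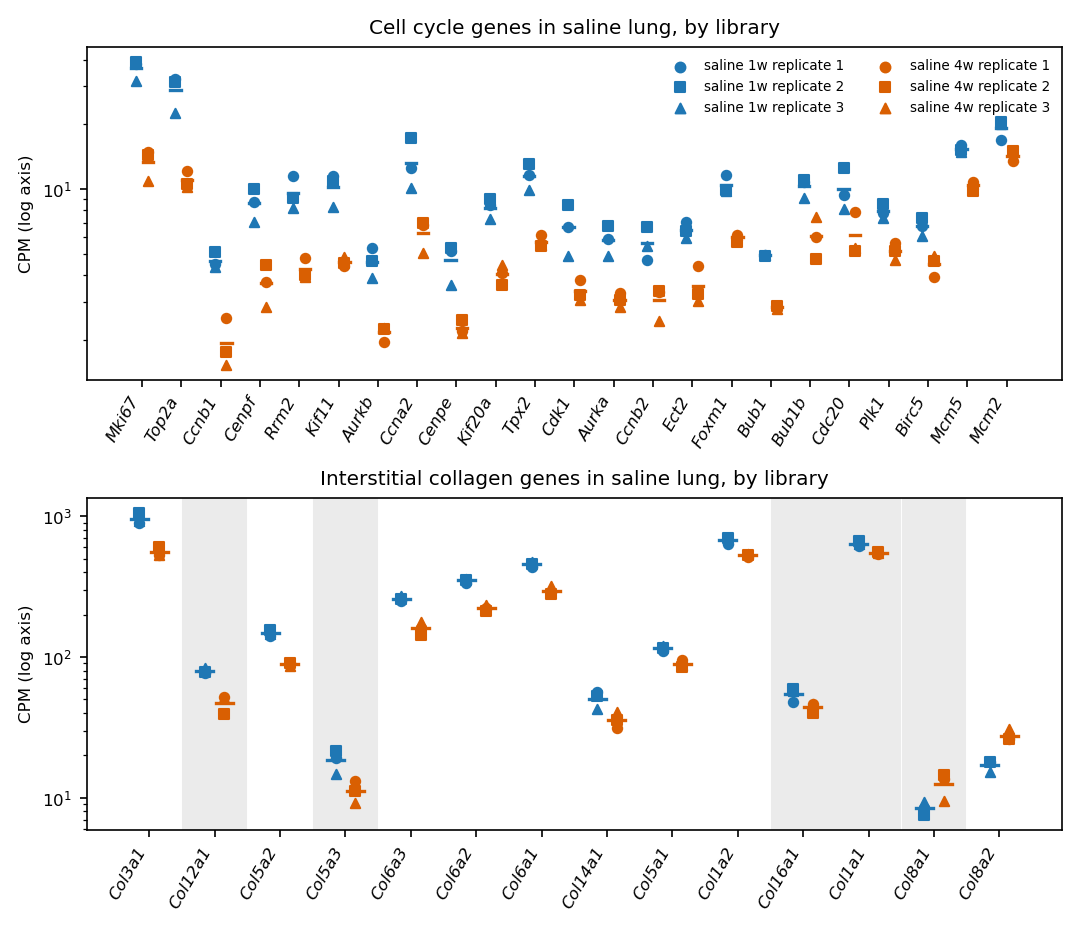
CPM of the 23 cell cycle genes that fell and of 14 interstitial collagen genes in the 6 saline libraries on log axes, with bars at the group means. Grey shading marks collagen genes that did not pass. Mki67 lay at 31.9 to 38.9 CPM at 1 week and at 11 to 14.9 CPM at 4 weeks, and Col3a1 at 896 to 1055 and 527 to 604 CPM.

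Basement membrane genes, which encode the sheet under epithelia and endothelia, fell in 11 of 22 cases and rose in none (median log2 -0.39). Col4a1, the ubiquitous collagen IV chain, was at 1534, 1538 and 1713 CPM at 1 week and 1068, 961 and 1062 CPM at 4 weeks. Its groups were apart (log2 -0.63 ± 0.09, edgeR adjusted p = 0.00719), and it passed in all 6 fits without a saline library, as did Col4a5 (-0.80 ± 0.12). Lama3 and Lamb3, chains of an epithelial anchoring laminin, fell by 0.93 ± 0.22 and 0.62 ± 0.14 on the log2 scale. Lama5 (0.13 ± 0.08), Lamb2 (-0.04 ± 0.08) and Lamc3 (0.21 ± 0.11) did not pass. The count called was 5, 11 and 2 without control 1w replicates 1, 2 and 3 and 5, 2 and 3 without control 4w replicates 1, 2 and 3.

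Of 19 elastic fibre genes 3 fell (15.8%, beside 4.20% of all tested genes). They were the microfibril genes Mfap4 (-0.77 ± 0.14) and Fbn1 (-0.57 ± 0.11) and the latent TGF-beta binding protein gene Ltbp3 (-0.28 ± 0.08). With a saline library left out the count was 3, 3 and 0 for control 1w replicates 1, 2 and 3 and 2, 1 and 0 for control 4w replicates 1, 2 and 3, and it was 6 without PQ 4w replicate 1 and 5 without PQ 4w replicate 3. Eln, encoding elastin, was at 868, 1220 and 1030 CPM and then at 689, 966 and 559 CPM, with overlapping groups and a log2 difference of -0.49 ± 0.21 that did not pass. Among 21 proteases and inhibitors of the matrix 3 fell (14.3%, beside 4.20% of all tested genes). They were Adamts4 (-1.34 ± 0.26), Mmp19 (-1.05 ± 0.13) and Adamts1 (-0.62 ± 0.17). Mmp19, a stromal metalloprotease, was at 57.7, 38.8 and 41.0 CPM at 1 week and 22, 23.9 and 20.3 CPM at 4 weeks, apart in all libraries, and passed in all 6 fits. The protease count was 1 without control 1w replicate 1 or control 4w replicate 3, 6 without PQ 1w replicate 2 or PQ 4w replicate 3, and 8 in the 6 saline libraries alone. Of 8 mesothelial genes, those of the surface proteins mesothelin (Msln, -0.89 ± 0.19) and uroplakin 3B (Upk3b, -0.82 ± 0.23) fell. In the fits without a saline library 1 mesothelial gene passed without control 1w replicate 2 or control 4w replicate 2 and none by edgeR without the other 4, Upk3b being lost in all 6, while 5 passed without PQ 4w replicate 3 and 1 without PQ 1w replicate 3.

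Genes of cytotoxic lymphocytes fell. Of 20 tested NK cell genes 7 fell and none rose (median log2 -0.66). Of 24 T cell genes 3 fell (12.5%, beside 4.20% of all tested genes), with a median of -0.52. Gzma, a granule protease gene, was at 47.0, 51.6 and 38.4 CPM at 1 week and 26.6, 24.8 and 14.8 CPM at 4 weeks, apart in all libraries (log2 -1.05 ± 0.21, edgeR adjusted p = 0.0213). Gzmb (-1.39 ± 0.28), the chemokine gene Ccl5 (-1.13 ± 0.22), the perforin gene Prf1 (-0.89 ± 0.19), the transcription factor gene Tbx21 (-1.01 ± 0.22) and the receptor genes Klrg1 (-1.29 ± 0.26) and Klrc1 (-0.70 ± 0.20) fell as well. Gzmk, a further granzyme gene, had the lowest log2 difference of all genes under the naming rule, from 1.87, 2.39 and 1.84 CPM to 0.405, 0.339 and 0.0571 CPM (-2.90 ± 0.57, edgeR adjusted p = 0.0203).

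The NK receptor genes Ncr1 (-0.63 ± 0.22), Klrb1c (-0.40 ± 0.17) and Klrd1 (-0.33 ± 0.25) did not pass. Among T cell genes Cd8a (-0.81 ± 0.20), Cd5 (-1.02 ± 0.27) and Themis (-0.99 ± 0.22) fell, Cd8a losing its call whichever saline library was left out. Cd3e, a chain of the T cell receptor complex, was at 8.38, 9.55 and 7.41 CPM and then at 5.44, 2.83 and 5.37 CPM, apart but not past the test (-0.89 ± 0.28, edgeR adjusted p = 0.0638). T cell calls numbered 11 in the fit of the 6 saline libraries alone and 7 by DESeq2, and at most 1 with any saline library left out. Leaving out a paraquat library gave 1 without PQ 1w replicate 3, 8 without PQ 4w replicate 2 and 11 without PQ 4w replicate 3. NK cell calls were 1, 7 and 4 without control 1w replicates 1, 2 and 3 and 6, 1 and 0 without control 4w replicates 1, 2 and 3, and 12 in the fit of the 6 saline libraries alone.

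B cell genes had the opposite sign. All 16 tested were higher at 4 weeks as point estimates (median log2 0.31), and 2 rose (12.5%, beside 5.90% of all tested genes). These 2 were Pax5 (1.18 ± 0.34), the B lineage factor gene, and Fcer2a (0.55 ± 0.16). Both were lost in each fit without a saline library. B cell calls numbered 5 in the 6 saline libraries alone and without PQ 4w replicate 3, 1 without PQ 4w replicate 1, and 0 by edgeR without any PQ 1w library. Of 11 monocyte genes 2 fell, Vcan (-1.74 ± 0.32) and the chemokine receptor gene Ccr2 (-1.14 ± 0.29). Vcan was at 46.9, 14.4 and 38.0 CPM at 1 week and 9.72, 10.7 and 9.42 CPM at 4 weeks, and Ccr2 at 82.0, 34.1 and 101 CPM and then at 32.8, 39.4 and 25.9 CPM. Replicate 2 was the lowest 1-week library for both, and its Ccr2 value lay within the range of the 4-week group. Vcan passed in 3 and Ccr2 in 1 of the 6 fits without a saline library. Monocyte calls numbered 1, 3 and 0 without control 1w replicates 1, 2 and 3, 1, 0 and 0 without control 4w replicates 1, 2 and 3, 1 without PQ 1w replicate 3 and 5 without PQ 4w replicate 3.

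Red cell genes were lower at 4 weeks with a wide spread. Of 11 tested, Alas2 (-1.50 ± 0.43), the first enzyme of haem synthesis in red cells, and Slc4a1 (-1.43 ± 0.37), the anion exchanger, fell, and the list median was -1.37. Hbb-bs, an adult beta globin gene, was at 1440, 2011 and 1222 CPM at 1 week and 867, 282 and 465 CPM at 4 weeks. The groups were apart, and its log2 difference of -1.53 ± 0.46 narrowly missed the threshold (edgeR adjusted p = 0.0551). Globin genes have near-identical copies, so counts of a single copy are uncertain. The fit of the 6 saline libraries alone called 7 red cell genes, leaving out control 4w replicate 1 called 5, and by edgeR none was called without any of the other 5 saline libraries. Among the fits without a paraquat library the count ran from 0 without PQ 1w replicate 3 to 8 without PQ 4w replicate 3.

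Alveolar and stress genes made smaller moves. Of 17 tested type 2 cell genes 6 fell (median log2 -0.29), among them Lamp3, a lamellar body membrane gene, which was at 504, 527 and 470 CPM at 1 week and 350, 331 and 361 CPM at 4 weeks. Lamp3 was apart in all libraries (log2 -0.53 ± 0.08, edgeR adjusted p = 0.0111) and passed in all 6 fits. Slc34a2, the phosphate transporter gene, fell by 0.49 ± 0.09 and Hc by 0.62 ± 0.12 on the log2 scale. The surfactant genes Sftpc (-0.17 ± 0.11), Sftpb (-0.11 ± 0.10) and Sftpd (-0.14 ± 0.09) did not pass and overlapped between the groups. Of 27 genes of cholesterol and fatty acid synthesis 5 fell, among them those of the fatty acid enzymes Scd1 (-0.67 ± 0.12), Fasn (-0.67 ± 0.15), Acaca (-0.52 ± 0.09) and Acly (-0.38 ± 0.10). The count was 2, 6 and 1 without control 1w replicates 1, 2 and 3 and 2, 1 and 4 without control 4w replicates 1, 2 and 3. Type 2 cell calls fell to 1 without control 1w replicate 3 or control 4w replicate 2 and were 4 without any of the other 4 saline libraries.

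Chaperone genes fell in 2 compartments. Of 16 heat shock genes 6 fell (median log2 -0.35), and of 19 genes of endoplasmic reticulum stress 7 fell (median -0.27). Hspa1b, an inducible cytosolic chaperone of the HSP70 family, was at 84.2, 166 and 58.9 CPM at 1 week and 43.9, 18.9 and 39.8 CPM at 4 weeks (log2 -1.59 ± 0.37, edgeR adjusted p = 0.0266). Replicate 2 was the highest 1-week and replicate 2 the lowest 4-week library, and Hspa1a, a near-identical neighbour whose reads can be swapped with it, showed the same (-1.55 ± 0.41). The constitutive Hspa8 (-0.70 ± 0.18) and the co-chaperone genes Dnajb1 (-0.62 ± 0.16) and Dnaja1 (-0.62 ± 0.17) fell too. Hspa5, encoding the reticulum chaperone BiP, was at 775, 784 and 723 CPM and then at 562, 448 and 543 CPM (log2 -0.56 ± 0.10, edgeR adjusted p = 0.019), and it passed in 5 of the 6 fits. No heat shock gene passed by edgeR without control 1w replicate 1, control 1w replicate 2, control 4w replicate 2 or control 4w replicate 3, 3 passed without control 1w replicate 3 and 4 without control 4w replicate 1. Without PQ 1w replicate 3 the count was 1. For reticulum stress the counts were 3, 5 and 1 without control 1w replicates 1, 2 and 3 and 5, 0 and 1 without control 4w replicates 1, 2 and 3, and 11 without PQ 4w replicate 3.

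Nuclear genes of mitochondrial complex I, the entry point of the respiratory chain, rose by small amounts in 10 of 23 cases (median log2 0.25). Ndufa5 was at 22.6, 23.6 and 21.2 CPM at 1 week and 34.0, 35.6 and 32.3 CPM at 4 weeks, apart in all libraries (log2 0.60 ± 0.09, edgeR adjusted p = 0.0107), and it passed in all 6 fits. Without control 1w replicate 2 the count was again 10, and without any other saline library it was 1, Ndufa5. Leaving out PQ 1w replicate 3 left 4. Of 17 genes of the glucocorticoid response 3 fell: Zbtb16 (-0.98 ± 0.24), Fkbp5 (-0.93 ± 0.23), a chaperone gene induced by the hormone, and Angptl4 (-0.38 ± 0.09). Without a saline library the count was again 3 for control 1w replicate 2, 1 for control 4w replicate 2 and 0 by edgeR for the other 4, and Angptl4 was lost in all 6. Without PQ 4w replicate 3 it was 5. Tsc22d3 (-0.41 ± 0.15), Sgk1 (-0.13 ± 0.10) and Dusp1 (-0.17 ± 0.10) did not pass.

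In 16 of the 54 lists no member passed by edgeR. All 33 tested interferon-induced genes failed the test, with 0 at an unadjusted p under 0.05 and 0 by DESeq2 or limma, and a median log2 of -0.23. The fit of the 6 saline libraries alone called 8 of them, however, and that without PQ 4w replicate 3 called 6. For 17 pan-endothelial genes the count was 0 by edgeR, DESeq2 and limma and 2 at an unadjusted p under 0.05, and Pecam1, an endothelial adhesion gene, was at 843 to 988 CPM in the 6 libraries. Genes of capillary endothelium (16 tested) and pericytes (11 tested) gave 0 calls by edgeR, DESeq2 and limma and 0 at an unadjusted p under 0.05, while 2 capillary genes passed in the 6 saline libraries alone and 2 without PQ 4w replicate 1. For 15 neutrophil genes edgeR, DESeq2 and limma gave 0 calls, with 1 at an unadjusted p under 0.05 and 1 called without control 1w replicate 2. For 19 genes of inflammatory chemokines and cytokines edgeR and DESeq2 gave 0 and limma 2, with 4 at an unadjusted p under 0.05 and 1 called without PQ 1w replicate 1 or control 1w replicate 2. These counts do not show that the genes were unchanged.

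The paraquat libraries over the same interval show how this background sits beside the change after injury. Between PQ 1w and PQ 4w, 8684 genes (54.5%) passed by edgeR, and the change over time differed between saline and paraquat for 5092 genes (32.0%). Of the 1609 genes called in saline, 80.7% had the same sign in paraquat, against 60.7% of all tested genes, and these 2 comparisons have no library in common. Cell cycle genes fell in both, with a list median of -2.71 after paraquat and -0.87 in saline, and all 28 fell after paraquat (27.8% of all tested genes fell). Mki67 fell by 2.70 ± 0.20 on the log2 scale after paraquat and by 1.43 ± 0.21 in saline, and the difference passed (adjusted p = 0.00598). Collagen genes had a list median of -2.31 against -0.51. Col1a1, which did not pass in saline, fell by 2.79 ± 0.09 between PQ 1w and PQ 4w, with the difference at an adjusted p of 4.07e-07. These falls started from higher levels in PQ 1w than in control 1w. Cell cycle genes summed to 1473 to 1658 CPM in PQ 1w beside 369 to 442 CPM in control 1w. At 4 weeks their sums were 309 to 401 CPM in PQ 4w and 258 to 284 CPM in control 4w. Collagen genes summed to 14990 to 16180 CPM in PQ 1w beside 3641 to 3995 CPM in control 1w. At 4 weeks their sums were 2864 to 3269 CPM in PQ 4w and 2630 to 2709 CPM in control 4w.

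Airway genes rose in both. Cyp2f2 rose by a log2 of 3.07 ± 0.19 after paraquat and 1.04 ± 0.17 in saline, and the difference passed (adjusted p = 0.000165). Its levels show where that difference lay: 4839 to 5482 CPM in control 4w beside 3611, 4102 and 2276 CPM in PQ 4w, and 2161 to 2779 CPM in control 1w beside 385, 426 and 376 CPM in PQ 1w. Ciliated genes had medians of 1.79 and 1.03. Dbp rose by 2.04 ± 0.23 after paraquat and by 2.51 ± 0.25 in saline, and Arntl fell by 0.62 ± 0.19 and 0.84 ± 0.17. The differences between these changes did not pass, at an adjusted p of 0.311 for Dbp and 0.545 for Arntl, which does not show that they were equal. Nr1d1 rose further after paraquat (2.21 ± 0.18 against 0.60 ± 0.17, adjusted p = 0.000553 for the difference).

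Cytotoxic lymphocyte genes went opposite ways. All 20 tested NK cell genes rose after paraquat (26.7% of all tested genes rose), with a list median of 1.75, while 7 fell in saline. Gzma was at 6.22, 3.54 and 6.22 CPM in PQ 1w and 17.0, 17.7 and 19.2 CPM in PQ 4w, a log2 difference of 1.76 ± 0.24 against -1.05 ± 0.21 in saline, and the difference passed (adjusted p = 0.000114). Its PQ 1w values were all below its control 1w values of 38.4 to 51.6 CPM. B cell genes rose after paraquat in 16 of 16 cases, with a list median of 2.51 against 0.31. Heat shock genes had a median of 0.07 after paraquat against -0.35, and for Hspa1b the difference of the changes passed (adjusted p = 0.0275).

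**Figure D5:**
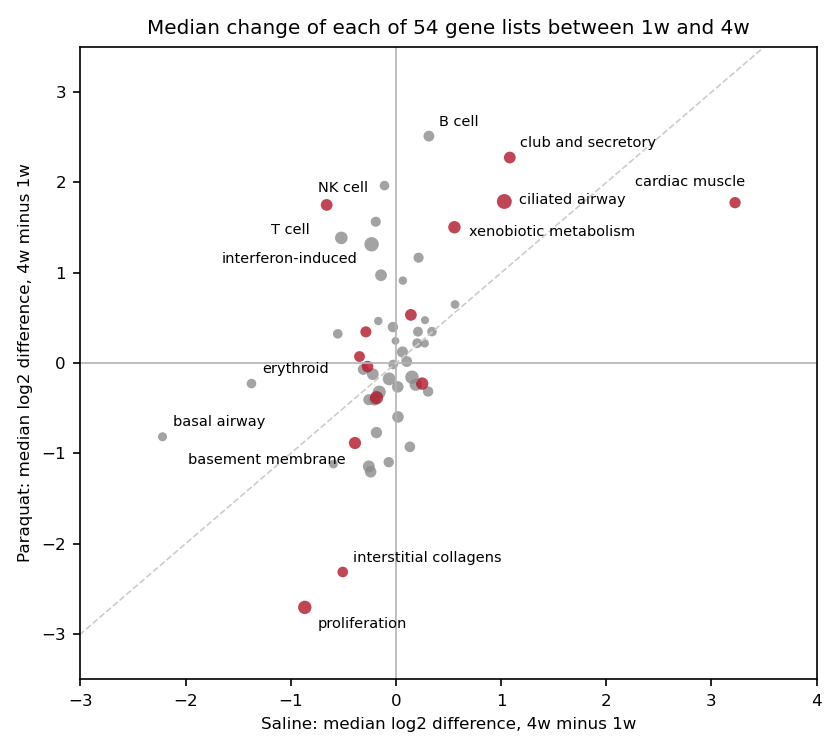
Median log2 difference between 4 and 1 weeks of the tested members of each of 54 gene lists, in saline (horizontal axis) and after paraquat (vertical axis). Points are lists, larger for more tested members and red where 5 or more members were called in saline, and the dashed line marks equal change. Cell cycle and collagen lists lay below the line on the left, NK and T cell lists above it on the left, and the cardiac list farthest right at 3.22.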

How the data were processed

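RNA of whole lung was sequenced on a BGISEQ 500 instrument, per the labels. The authors deposited, for each of 12 libraries, a table of expected counts and FPKM values, and 20774 genes appeared in the joined tables. A gene missing from the table of a library was treated as having no counts there. HISAT, RSEM 1.2.12 and the build mm10 are named in the submitters' processing notes, with no settings. FPKM scales the authors' counts to gene length and library size. Of the deposited expected counts 69.7% were whole, and all were rounded to whole numbers. Because multi-mapped reads are shared out by estimation, counts of near-identical genes are uncertain. There were 27 symbols turned into dates, which were replaced by the RefSeq symbol of the same gene identifier, or by the identifier where RefSeq had none.

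Counts were tested with edgeR 4.0.16 (R 4.3.3) by the quasi-likelihood method with TMM scaling, 4 group means over 12 libraries and genes kept by a minimum count of 10 and a minimum total count of 15. P-values were adjusted by the Benjamini-Hochberg method over 15921 genes at 0.05. Standard errors were taken as the log2 difference over the root of the F statistic. The difference between the changes in paraquat and saline was tested as a contrast of the same fit. The code was tested on simulated data.

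Alternatives were the 6 saline libraries alone, DESeq2 1.42.0, RLE scaling, other count filters, a replicate block, limma 3.58.1 on log2(FPKM + 0.1) and log2(FPKM + 1), and leaving out each library. Leaving out paraquat libraries in the saline comparison was chosen after seeing the data. So was applying the alternatives to every gene list other than the club, ciliated and clock lists.

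The members and the 54 gene lists (952 genes) were chosen with earlier results of these data known. Genes were named by rule: the 15 highest and 15 lowest log2 differences among called genes with separated groups whose saline mean reached 1 CPM, leaving out predicted genes, antigen receptor segments and histone genes; the 2 genes with the smallest p in each list with a call; every club, ciliated and clock member; and 12 fixed marker genes. Some of these genes are not reported here. Further list members were named after their values were seen. Promoters came from RefSeq (GRCm38.p6).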

Additional observations from a re-analysis of the deposited data

Results flagged for a closer look

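Of 59 genes checked, 19 had a log2 difference between 4 and 1 weeks that was not the same in saline as in paraquat lungs. This was by edgeR's test of the difference between the 2 changes, with Benjamini-Hochberg adjustment over all tested genes. A similar share of all tested genes, 32.0%, passed, so the count does not set the 59 genes apart. Each of the 19 genes is given with its change in either group (3 libraries at each time) and the adjusted p of the difference.

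Genes of dividing cells were Mki67 (-1.43 ± 0.21 in saline and -2.70 ± 0.20 after paraquat, adjusted p = 0.00598), Iqgap3 (-1.45 ± 0.17 in saline and -3.50 ± 0.16 after paraquat, adjusted p = 9.24e-05), Pbk (-1.69 ± 0.25 in saline and -3.66 ± 0.23 after paraquat, adjusted p = 0.00136), Fam64a (-1.60 ± 0.31 in saline and -3.87 ± 0.28 after paraquat, adjusted p = 0.00206), Ncapg (-1.45 ± 0.22 in saline and -2.52 ± 0.19 after paraquat, adjusted p = 0.0157) and Shcbp1 (-1.88 ± 0.29 in saline and -3.12 ± 0.23 after paraquat, adjusted p = 0.0283). All 6 had negative values in both groups, larger in size after paraquat, and each was higher in PQ 1w than in control 1w. Among clock genes they were Nr1d1 (0.60 ± 0.17 in saline and 2.21 ± 0.18 after paraquat, adjusted p = 0.000553), Npas2 (-0.93 ± 0.23 in saline and 0.53 ± 0.25 after paraquat, adjusted p = 0.00737), Cry2 (0.09 ± 0.10 in saline and 0.74 ± 0.10 after paraquat, adjusted p = 0.00519), Bhlhe40 (-0.03 ± 0.12 in saline and -0.60 ± 0.11 after paraquat, adjusted p = 0.019) and Rora (-0.18 ± 0.07 in saline and 0.11 ± 0.07 after paraquat, adjusted p = 0.039).

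Lymphocyte genes were Cd3e (-0.89 ± 0.28 in saline and 1.67 ± 0.30 after paraquat, adjusted p = 0.000801) and Gzmk (-2.90 ± 0.57 in saline and 0.09 ± 0.54 after paraquat, adjusted p = 0.0143). Vcan, from the monocyte list, was another (-1.74 ± 0.32 in saline and -3.33 ± 0.34 after paraquat, adjusted p = 0.0199). It does not stand for that list, in which 5 of 11 members rose and 1 fell after paraquat (median log2 0.32). Of all tested genes, 26.7% rose and 27.8% fell after paraquat. Genes of matrix, contractile and alveolar cells were Col1a1 (-0.21 ± 0.09 in saline and -2.79 ± 0.09 after paraquat, adjusted p = 4.07e-07), Acta2 (0.48 ± 0.17 in saline and -1.35 ± 0.17 after paraquat, adjusted p = 0.000281) and Sftpc (-0.17 ± 0.11 in saline and 0.72 ± 0.11 after paraquat, adjusted p = 0.00162). The chaperone genes were Hspa1a (-1.55 ± 0.41 in saline and 0.51 ± 0.42 after paraquat, adjusted p = 0.0189) and Hspa1b (-1.59 ± 0.37 in saline and 0.10 ± 0.38 after paraquat, adjusted p = 0.0275), a near-identical pair that counts as 1 observation. No explanation of these differences was tested.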

How the results depend on the processing

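Replicates limited these results most. With 1 library left out at a time, called genes ranged from 123 to 2570 (1609 with all), higher genes from 32 to 1497 (940) and lower genes from 81 to 1073 (669), and genes whose change differed between saline and paraquat from 4107 to 5250 (5092). Called members ranged from 1 to 14 for club and secretory genes (8), 0 to 30 for ciliated genes (21), 4 to 11 for clock genes (10), 0 to 18 for cardiac genes (17), 10 to 25 for cell cycle genes (23), 5 to 11 for collagens (9), 2 to 14 for basement membrane (11), 0 to 9 for NK cell genes (7), 1 to 16 for xenobiotic metabolism (16) and 0 to 6 for heat shock (6). With 2 libraries left in a group, the spread was estimated over all groups.

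DESeq2 called 1239 genes lower, against 669. The 6 saline libraries alone gave 15 club and secretory genes and 12 NK cell genes. The share of calls that were higher was 58.4% by edgeR with TMM, 47.7% by DESeq2, 49.9% with RLE scaling and 65.5% by limma on log2(FPKM + 1).

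Among 127 named genes that passed, the sign did not change under any alternative run. All 127 had passed in these same libraries, many with separated groups by the naming rule. A stable sign was therefore likely in advance and is no independent support. Of the 127, 20 passed in all 6 fits without a saline library, 26 in 0 of them, and 99 under every alternative other than leaving out 1 library. Of 47 named genes that did not pass, 7 changed sign somewhere, all with small differences. Ciart, at 0.00 on the log2 scale, was at -0.007017 in the 6 saline libraries alone, -0.02674 by DESeq2, -0.02558 with RLE, -0.007856 and -0.006897 by limma on log2(FPKM + 0.1) and log2(FPKM + 1), -0.01206 with no filter and -0.0226 with the replicate block, and ran from -0.1689 to 0.1233 with a library left out. Ddx3y was at 0.00956 and 0.008709 by limma with those pseudocounts and at 0.0007941 with a minimum mean of 1 CPM, and ran from -0.08082 to 0.09987 with a library left out. With a library left out, Cry2 ran from -0.01866 to 0.1851, Mcidas from -0.1511 to 0.4672, Pecam1 from -0.09167 to 0.01073, Per1 from -0.1697 to 0.1291 and Tppp3 from -0.03735 to 0.2334. The causes were not tested.

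Same-numbered saline libraries had correlations of -0.318, -0.136 and -0.031 in their deviations from the group means. Differently numbered libraries had correlations from -0.109 to 0.232. Deviations within a group are tied together, so these values cannot show whether equal numbers mark paired samples. A fit with the replicate number as a block called 1447 genes, 866 higher and 581 lower.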

Other observations

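Genes outside the lists also passed in each of the 6 fits that left out a saline library, and those given here were chosen after their values were seen. Prc1, which bundles microtubules at the division plane, was at 12.7, 13.4 and 12.9 CPM (counts scaled to a common library size) in the control 1w libraries and 5.90, 6.22 and 5.94 CPM in the control 4w libraries (log2 -1.11 ± 0.12, edgeR adjusted p = 0.00407). The groups were far apart and each lay within a narrow range. Thbs1, encoding the matrix protein thrombospondin 1, was at 494, 266 and 345 CPM and then at 193, 154 and 120 CPM (log2 -1.24 ± 0.20, edgeR adjusted p = 0.0111). Slit2, a secreted guidance factor gene, fell by 0.59 ± 0.09 and Egfl6, a matrix protein gene, by 0.70 ± 0.11 on the log2 scale.

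Shh, the sonic hedgehog ligand gene of airway epithelium, was at 12.3, 13 and 10.3 CPM at 1 week and 19.1, 23.6 and 19.6 CPM at 4 weeks (log2 0.81 ± 0.13, edgeR adjusted p = 0.0107). Kcnk2, a potassium channel gene, was at 40.9, 38.7 and 31.5 CPM and then at 62.4, 55.0 and 65.6 CPM (log2 0.72 ± 0.10, edgeR adjusted p = 0.00832). In both genes every 4-week library was above every 1-week library.

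Basal cell genes were low and uneven. Krt14, a keratin gene, was at 0.849, 0.626 and 2.67 CPM at 1 week and 0.116, 0.226 and 0.114 CPM at 4 weeks (log2 -3.13 ± 0.73, edgeR adjusted p = 0.0277), with replicate 3 the highest at 1 week. It was the 1 called gene of 9 tested basal cell genes, and it passed in 2 of the 6 fits without a saline library.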
